A study of Mus musculus with 6 samples.

Results

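The genes described here encode the parts of the lipopolysaccharide (LPS) receptor complex other than the receptor itself, the adaptors that dock on it, and the first kinases and ligase behind them. They are 10 genes chosen by their role in textbook accounts of the pathway, by a rule that uses no measured value but that was written with earlier results of these data known: Cd14 and Ly96 of the receptor complex, the adaptors Myd88, Tirap, Ticam1 and Ticam2, the kinases Irak1, Irak2 and Irak4, and the ubiquitin ligase Traf6. They are 10 of the 55335 genes in the table, and all 10 were among the 15687 genes that passed the filter on low counts. The table holds 6 RNA-seq libraries of total RNA from bone marrow-derived macrophages (BMDMs), macrophages grown in culture from the marrow of C57BL/6 mice in medium conditioned by L929 cells. Of these, 3 libraries came from cells given phosphate-buffered saline (PBS, the control) and 3 from cells given LPS, the outer-membrane glycolipid of Gram-negative bacteria. All 6 were collected 1 h after treatment and carry no genetic change. The LPS dose is not given in the sources used here, and neither is whether the replicates came from separate animals, so p-values measure only the spread between these libraries.

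LPS is drawn from the bacterial membrane by LPS-binding protein, passed to CD14 and loaded into the pocket of MD-2, the product of Ly96, which sits on the receptor TLR4. At the cell surface, TIRAP bridges the receptor to MyD88, which assembles IRAK4, IRAK1 and IRAK2 into a signalling platform, and TRAF6 then builds ubiquitin chains that activate the kinases TAK1 and IKK and with them NF-κB. After the receptor is taken up into endosomes, a step that needs CD14, TRAM (Ticam2) bridges it to TRIF (Ticam1), which leads to the kinase TBK1, the factor IRF3 and type I interferon. The question asked of the data was how the messenger RNAs of this machinery stood in the first hour of the response that it starts.

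Cd14 and Irak2 rose and Tirap fell at the criteria of the study, a log2 fold change beyond 1 in either direction with an adjusted p under 0.05, here from edgeR's quasi-likelihood test. Cd14 was 9.10-fold and Irak2 4.0-fold higher in LPS, and Tirap stood at 48.7% of its control level. Of all genes tested, 10.5% were higher and 10.4% lower at these criteria, against 2 and 1 of the 10 genes. At the adjusted p alone, 7 of the 10 were higher, namely Cd14, Irak2, Myd88, Traf6, Ticam1, Ly96 and Irak1, and 2 were lower, Tirap and Irak4, against 32.9% and 34.9% of all genes tested. The other member, Ticam2, did not pass. The 3 LPS libraries did not overlap the 3 control libraries in 9 of the 10 genes, all but Ticam2, and in 70.5% of all genes tested. The median log2 fold change of the 10 genes was 0.34, beside -0.01 over all genes tested.

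**Figure D1:**
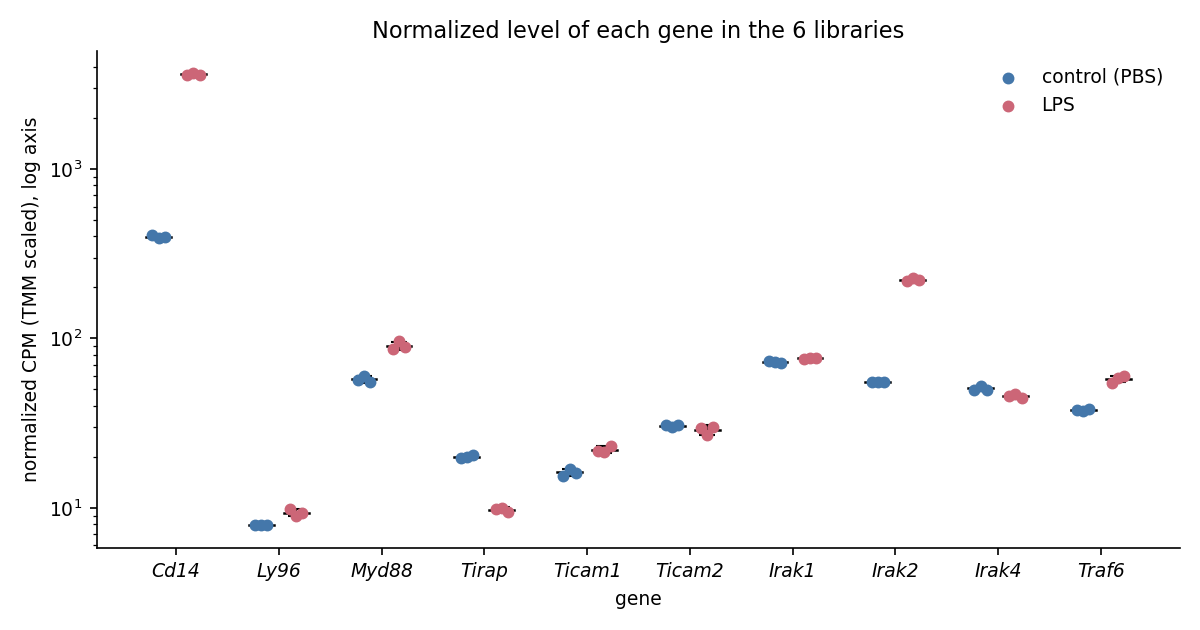
Normalized level of each of the 10 genes in CPM (counts scaled to the library total with TMM factors) on a log axis, with 1 point for each of the 3 control (blue) and 3 LPS (red) libraries and black bars for the mean and the SD. Cd14 and Irak2 stand far above their control points, Tirap stands below them, and the points of Ticam2 overlap.

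How the libraries are scaled matters for the smaller changes. Library totals were 37787611 to 41516330 counts, but the TMM factors were 1.15 in each control library and between 0.864 and 0.872 in the LPS libraries. Normalized levels below are counts scaled to the library total (CPM) with these factors. With scaling by library size only, the median over all genes of the log2 fold change moved from -0.01 to -0.42 and the split of calls at both criteria from 1653 higher and 1624 lower to 1213 higher and 2964 lower. Upper quartile scaling gave a median of -0.16 over all genes. At the adjusted p alone, library size gave 4 of the 10 genes higher and 4 lower in place of 7 and 2. Of all genes tested, 15.0% were then higher and 65.9% lower. Directions for Cd14, Irak2, Myd88, Traf6, Ticam1, Ticam2, Irak4 and Tirap were the same under all 4 scalings tried, and those for Ly96 and Irak1 were not. Summed macrophage markers (7 genes) ranged from 29548 to 30823 normalized CPM in control and from 32289 to 32639 in LPS libraries. Summed markers of other cells were far lower, and these sums were also higher after LPS, with no overlap between the groups. They were 40.8 to 43.6 against 52.7 to 56.8 normalized CPM for neutrophils and their precursors (7 genes). For dendritic cells (4 genes) they were 3.15 to 4.01 against 9.62 to 10.6, and for T cells (4 genes) 20.4 to 22.4 against 30.5 to 30.9. Nearly all of the T cell sum was Cd4, at 21.2 in control and 30.4 in LPS. Of its other markers, Cd3e was higher after LPS, while Cd3g (0.152 to 0.139) and Cd8a (0.145 to 0.120) were lower, with at most 9 counts each. The sums were 0.861 to 1.08 against 1.10 to 1.49 for B cells (4 genes) and 8.39 to 9.45 against 11.2 to 12.4 for fibroblasts and endothelium (4 genes). Lyz2 made up most of the macrophage sum, at 23272 normalized CPM in control and 24224 in LPS. S100a8 (11.3 in control, 15.0 in LPS) and S100a9 (19.4 and 25.0) made up most of the neutrophil sum. Ly6g, in the same list, had at most 3 counts in any library. Some markers were lower after LPS: Fcgr1 went from 396 to 284, Mertk from 109 to 106 and Pax5 from 0.230 to 0.198. Elane was level at 0.567. All these sums use the TMM factors and were not taken with library size alone, so their rises depend on the scaling. No marker was at 0 in all 6 libraries, and the part of these marker shifts in the results was not tested. In bulk RNA, fewer cells of a type and less RNA per cell cannot be told apart.

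In the receptor complex, Cd14 rose far more than Ly96. CD14 is a glycolipid-anchored protein that captures LPS at the cell surface. The Cd14 gene (ENSMUSG00000051439.7) lies on the minus strand of chromosome 18 at 36725067 to 36726798 of GRCm38. The 3 control libraries held 19310, 17641 and 18358 counts of it and the 3 LPS libraries 120406, 119924 and 122739. Scaled, these were 405.5, 390.5 and 397.9 normalized CPM in control and 3588, 3674 and 3606 in LPS. Every LPS library stood far above every control library, and the spread within either group was narrow beside the gap. The mean went from 398 ± 7.53 to 3623 ± 45.5 normalized CPM (SD, n = 3), which is 3.19 on the log2 scale (SE 0.03, adjusted p = 4.12e-22 in edgeR's quasi-likelihood test). That difference was the 450th highest of the 15687 tested genes. The same-numbered pairs gave log2 ratios between 3.15 and 3.23, and the scalings gave 2.78 to 3.21. No exon of another annotated gene overlaps those of Cd14.

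Ly96 encodes MD-2, the subunit whose pocket holds the lipid part of LPS. The gene (ENSMUSG00000025779.10) lies on the plus strand of chromosome 1 at 16688051 to 16709611 and was the least counted of the 10, with 378, 360 and 364 counts in the controls against 331, 292 and 317 after LPS. Normalized, the values were 7.94, 7.97 and 7.89 CPM in control and 9.86, 8.95 and 9.31 in LPS. The groups did not overlap after scaling, although the raw counts were lower in all 3 LPS libraries. The log2 fold change was 0.24 (SE 0.08, adjusted p = 0.00998 in edgeR's test), but it was 0.10 (adjusted p = 0.262) with upper quartile scaling and reversed to -0.16 (adjusted p = 0.0593) with library size alone. Without LPS replicate 1 it was 0.20 (adjusted p = 0.0544). The direction of Ly96 thus rests on the scaling. The ratio of Cd14 to Ly96 counts within a library does not depend on scaling, and it went from 49.0 to 51.1 in control to 364 to 411 after LPS, a mean log2 difference of 2.95.

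Among the adaptors, Myd88 and Ticam1 rose, Tirap fell and Ticam2 did not pass the test. MyD88 is the adaptor of nearly all Toll-like receptors and of the interleukin-1 receptors. Myd88 (ENSMUSG00000032508.8, chromosome 9, 119335934 to 119341411, minus strand) had normalized levels of 56.5, 60.4 and 55.1 CPM in control and 86.8, 96.4 and 88.8 in LPS libraries. The highest control library was well below the lowest LPS library. The mean rose 1.58-fold, a log2 fold change of 0.66 (SE 0.05, adjusted p = 3.62e-10 in edgeR's test), and the value was 0.26 with library size alone. Its exons share 290 bases, 11.3% of their length, with Acaa1a on the opposite strand, a gene whose own log2 fold change was -0.04 (SE 0.05, adjusted p = 0.457).

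TIRAP (also called Mal) anchors MyD88 to the plasma membrane beside TLR4. Tirap (ENSMUSG00000032041.15, chromosome 9, 35184551 to 35200291, minus strand) was counted 936, 902 and 950 times in the controls against 330, 327 and 322 times after LPS. These were 19.7, 20.0 and 20.6 normalized CPM in control and 9.83, 10.0 and 9.46 in LPS. Each LPS library stood near the middle of the distance from 0 to the control level. Tirap fell by 1.04 on the log2 scale (SE 0.06, adjusted p = 5.58e-11 in edgeR's test), by between 0.99 and 1.12 in the same-numbered pairs. The value was close to the fold criterion, and it was past it under all 15 alternatives run, from -1.02 to the -1.44 of library size alone. The ratio of Tirap to Myd88 counts went from between 0.331 and 0.374 in control to between 0.104 and 0.113 in LPS libraries, a mean log2 difference of -1.70. The antisense gene Gm39318, which covers 9.05% of Tirap's exons, never exceeded 1 count, and Srpr, which shares 39 bases on the opposite strand, had a log2 fold change of 0.24 (adjusted p = 3.46e-05).

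TRIF, encoded by Ticam1, is the adaptor of TLR3 and of endosomal TLR4. Ticam1 (ENSMUSG00000047123.8, chromosome 17, 56269319 to 56276786, minus strand) had normalized levels of 15.4, 17.0 and 16.1 CPM in control and 21.5, 21.3 and 23.2 in LPS libraries. The LPS libraries were all higher, and the raw counts, 733, 769 and 742 against 723, 694 and 791, overlapped. The log2 fold change was 0.45 (SE 0.06, adjusted p = 3.06e-06 in edgeR's test), and 0.04 (adjusted p = 0.531) with library size alone.

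TRAM, encoded by Ticam2, is the bridge that TRIF needs at TLR4. Ticam2 (ENSMUSG00000056130.10, chromosome 18, 46557291 to 46574533, minus strand) had 30.7, 29.9 and 30.9 normalized CPM in control and 29.8, 26.8 and 30.1 in LPS libraries. The groups overlapped. The log2 fold change was -0.08 (SE 0.05, adjusted p = 0.179 in edgeR's test), with a 95% interval from -0.18 to 0.02, so a change as large as those of Ticam1 or Myd88 lies outside it under TMM. It was -0.22 (adjusted p = 0.00085) with upper quartile scaling and -0.48 (adjusted p = 1.65e-07) with library size alone. Its exons share 838 bases, 14.5% of their length, with Tmed7 on the same strand, where reads cannot be told apart by strand, and Tmed7 itself had a log2 fold change of 0.19 (adjusted p = 7.76e-04).

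Within a library, the TRIF and MyD88 arms can be set against each other without scaling. The ratio of Ticam1 to Myd88 counts was between 0.273 and 0.292 in control and between 0.221 and 0.262 in LPS libraries, a mean log2 difference of -0.22. The ratio of Ticam1 to Ticam2 counts was between 0.501 and 0.570 in control and between 0.724 and 0.793 in LPS libraries, a mean log2 difference of 0.53. Both ratios separated the groups. For these and the other 6 ratios described (8 pairs in all), the exact two-sided permutation p was 0.1, the smallest that 3 libraries against 3 can give, and 0.1 after Benjamini-Hochberg adjustment over the 8.

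Among the kinases, Irak2 rose, Irak4 fell slightly and Irak1 had no stable direction. IRAK4 is the kinase that MyD88 recruits first, IRAK1 is its substrate and is degraded soon after activation, and IRAK2 sustains the later output of the pathway. Irak2 (ENSMUSG00000060477.14, chromosome 6, 113638467 to 113695026, plus strand) was counted 2634, 2512 and 2564 times in the controls against 7293, 7437 and 7531 times after LPS. On the normalized scale it stood at 55.3, 55.6 and 55.6 CPM in control and at 217.3, 227.9 and 221.3 in LPS. The control libraries were almost level, and all LPS libraries were well clear of them. The control SD was 0.280% of the mean, below the counting error of 1.97%, so it can understate the spread. The mean rose from 55.5 ± 0.155 to 222 ± 5.32 normalized CPM (SD, n = 3), which is 2.00 on the log2 scale (SE 0.03, adjusted p = 3.27e-19 in edgeR's test), between 1.60 and 2.02 over the 4 scalings. It was the 833rd highest change among the tested genes. Gm43963, which shares 196 bases with its exons on the opposite strand, had at most 4 counts in any library.

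Irak1 (ENSMUSG00000031392.18, chromosome X, 74013914 to 74023918, minus strand) was counted 3496, 3263 and 3291 times in the controls against 2547, 2513 and 2616 times after LPS. Its normalized levels were 73.4, 72.2 and 71.3 CPM in control and 75.9, 77.0 and 76.9 in LPS. After scaling the LPS libraries were slightly higher, before it they were all lower. The log2 fold change was 0.08 (SE 0.03, adjusted p = 0.0425 in edgeR's test), reversed to -0.060 (adjusted p = 0.129) with upper quartile scaling and to -0.32 (adjusted p = 1.4e-07) with library size alone. Leaving out PBS replicate 2 or 3 or any 1 LPS library gave an adjusted p of 0.0798 to 0.126, so no direction can be given for Irak1. The miRNA genes Mir5132 and Mir718 overlap its exons, by 71 and 70 bases, and had at most 1 count in any library.

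Irak4 (ENSMUSG00000059883.16, chromosome 15, 94543643 to 94581815, plus strand) was at 49.9, 52.5 and 49.6 normalized CPM in control and at 45.4, 47.2 and 44.2 in LPS libraries. The LPS libraries were lower by a small margin. Irak4 fell by 0.15 on the log2 scale (SE 0.04, adjusted p = 0.00391 in edgeR's test), and by 0.13 to 0.56 over the 4 scalings. Its exons share 395 bases, 7.87% of their length, with Twf1 on the opposite strand, whose log2 fold change was 0.28 (adjusted p = 2.23e-06).

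The balance among the kinases changed by measures that need no scaling between libraries. The ratio of Irak2 to Irak1 counts was between 0.753 and 0.779 in control and between 2.86 and 2.96 in LPS libraries, a mean log2 difference of 1.92. The ratio of Irak2 to Irak4 went from between 1.06 and 1.12 to between 4.78 and 5.01, a difference of 2.15, and that of Irak1 to Irak4 from between 1.38 and 1.47 to between 1.63 and 1.74, a difference of 0.23. Irak1 thus shifted little against Irak4, while Irak2 shifted strongly against both. Per kilobase of exon, Irak2 made up 33.1% ± 0.350 of the summed level of the kinases in control and 66.5% ± 0.290 in LPS (SD, n = 3). The share of Irak1 went from 40.4% ± 0.509 to 21.5% ± 0.314 and that of Irak4 from 26.5% ± 0.596 to 12% ± 0.266. The summed level itself, unlike the ratios and shares, depends on the scaling. With the TMM factors it went from 38 ± 0.385 to 75.7 ± 1.53 normalized CPM per kilobase.

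**Figure D2:**
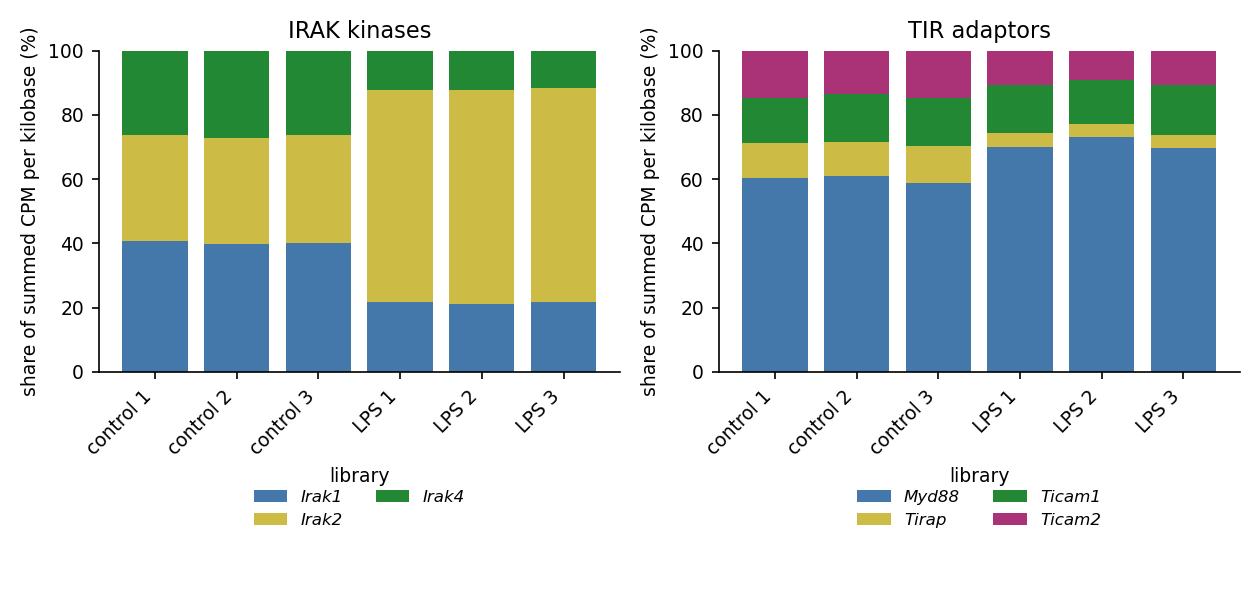
Share, in percent, of each gene in the summed normalized CPM per kilobase of exon of the 3 IRAK kinases (left) and of the 4 adaptors (right), with 1 stacked bar for each of the 6 libraries. Irak2 holds 32.8% to 33.5% of the kinase level in the control libraries and 66.2% to 66.8% in the LPS libraries, and the share of Tirap among the adaptors shrinks.

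The DNA just before the start of these kinase genes is shown for Irak2, which rose most among the genes with an entry in the RefSeq table, and for Irak1, the kinase with no stable direction. RefSeq windows of GRCm38.p6 were found for 7 of the 10 genes, with none for Cd14, Ly96 and Ticam2. Each sequence is the 250 bases before the annotated start, 5′ to 3′ on the strand of the gene, Irak2 at chr6:113638217-113638466 (plus) and Irak1 at chrX:74023919-74024168 (minus). Traf6, the ligase described next, is at chr2:101678170-101678419 (plus). Capitals mark matches, on either strand, to any of 7 motifs: the NF-κB site, the CArG box of SRF, the AP-1 site TGANTCA, the CRE core TGACGT, the GC box GGGCGG, the TATA box TATAAA and the ETS core GGAAGT.
Irak2: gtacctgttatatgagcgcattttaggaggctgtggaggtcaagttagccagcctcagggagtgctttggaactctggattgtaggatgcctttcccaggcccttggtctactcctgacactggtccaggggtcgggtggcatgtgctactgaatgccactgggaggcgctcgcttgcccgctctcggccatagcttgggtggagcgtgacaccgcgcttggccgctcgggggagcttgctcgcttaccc
Irak1: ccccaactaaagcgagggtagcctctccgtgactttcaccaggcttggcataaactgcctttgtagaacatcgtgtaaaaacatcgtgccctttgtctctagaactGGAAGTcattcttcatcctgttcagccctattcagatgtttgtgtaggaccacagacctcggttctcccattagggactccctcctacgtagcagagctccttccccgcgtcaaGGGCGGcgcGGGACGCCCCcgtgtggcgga
Traf6: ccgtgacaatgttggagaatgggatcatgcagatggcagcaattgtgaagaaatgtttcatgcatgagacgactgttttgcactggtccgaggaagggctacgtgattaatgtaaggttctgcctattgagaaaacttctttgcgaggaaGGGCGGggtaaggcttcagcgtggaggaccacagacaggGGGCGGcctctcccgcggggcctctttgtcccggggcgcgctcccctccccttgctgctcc
The Irak2 window holds no match to any of the 7. The Irak1 window holds an NF-κB match that reads as one on both strands at -21 to -12. It also holds a GC box at -30 to -25 and an ETS core at -144 to -139. The 18 bases of this window nearest the start are annotated as exon of Mir718, so part of the NF-κB match lies in it. The Traf6 window holds GC boxes at -100 to -95 and at -61 to -56. Of 32851 windows of the same length, 7.251% held the NF-κB motif, 32.74% the GC box, 19.74% the ETS core, 12.37% the TATA box, 6.749% the AP-1 site, 6.469% the CRE core and 1.467% the CArG box. Irak1 was the only one of the 7 genes with an NF-κB match in this window. The GC box was found for Traf6, Tirap (in 1 of its 2 windows), Myd88, Irak4, Ticam1 and Irak1, and the TATA box for Myd88. The windows of the 7 genes held 51.2% to 68.4% G and C, beside a median of 52.4% over all windows. A match is a string of letters and not a bound site, and these windows leave out enhancers and all but 1 or 2 annotated starts of each gene.

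Traf6, the ubiquitin ligase on which the MyD88 arm converges, rose. Traf6 (ENSMUSG00000027164.8, chromosome 2, 101678429 to 101701669, plus strand) was counted 1798, 1678 and 1756 times in the controls against 1843, 1903 and 2029 times after LPS. Its normalized levels were 37.76, 37.14 and 38.06 CPM in control and 54.9, 58.3 and 59.6 in LPS. All 3 LPS libraries were higher than all control libraries on both scales. The log2 fold change was 0.61 (SE 0.04, adjusted p = 4.09e-10 in edgeR's test), and 0.21 with library size alone. Against Irak1, the ratio of counts went from between 0.514 and 0.534 to between 0.724 and 0.776, a mean log2 difference of 0.53.

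**Figure D3:**
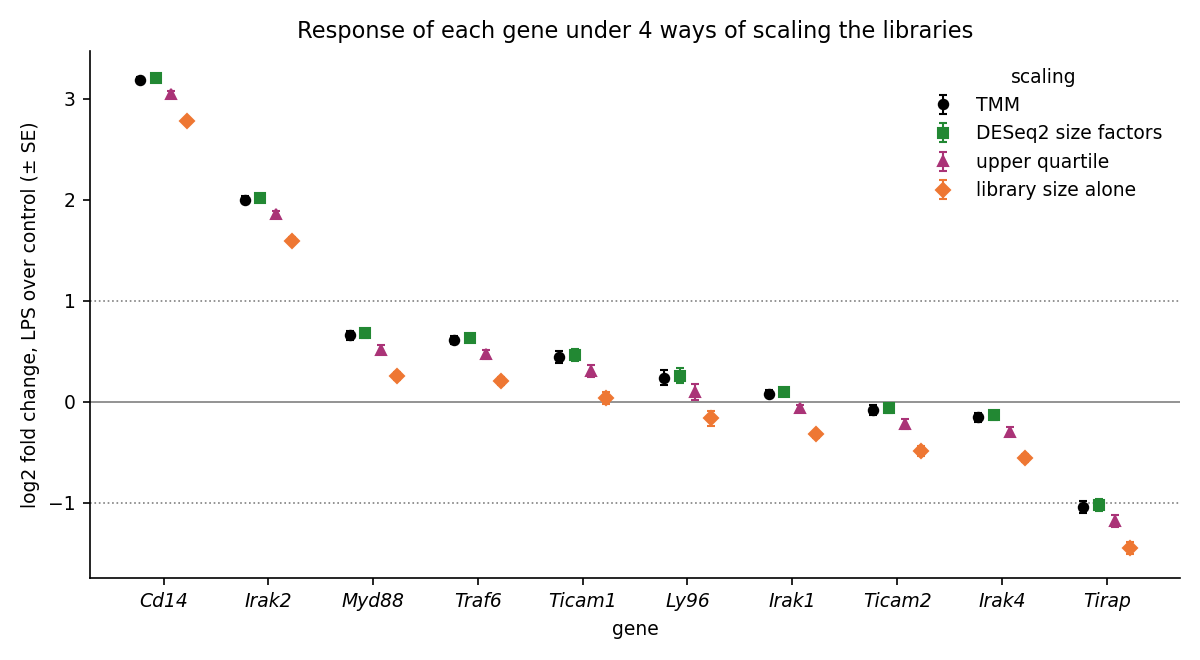
Log2 fold change of each of the 10 genes, LPS over control, with its SE, under 4 ways of scaling the libraries. The markers of each gene step down from TMM and DESeq2 size factors to library size alone, where those of Ly96 and Irak1 are below 0, and the dotted lines mark the fold criterion at -1 and 1.

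Levels of the 10 genes were set beside each other only per kilobase of exon. In control cells Cd14 had 230 ± 4.35 normalized CPM per kilobase (SD, n = 3) and was followed by Myd88 with 22.3 ± 1.06, Irak1 with 15.3 ± 0.223, Irak2 with 12.6 ± 0.0352, Irak4 with 10.1 ± 0.310 and Ly96 with 7.77 ± 0.0393. Below these came Ticam1 with 5.40 ± 0.273, Ticam2 with 5.27 ± 0.0979, Traf6 with 4.78 ± 0.0593 and Tirap with 4.07 ± 0.0963. Ticam1 and Ticam2 overlapped over their libraries, and the other neighbours did not.

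After LPS the level of Cd14 was 2092 ± 26.3 normalized CPM per kilobase. Irak2 had moved to the second place with 50.4 ± 1.21, ahead of Myd88 with 35.2 ± 1.97 and Irak1 with 16.2 ± 0.127. Ly96 (9.18 ± 0.452) overlapped Irak4 (9.08 ± 0.299), and Ticam1 (7.36 ± 0.358) overlapped Traf6 (7.31 ± 0.308). Ticam2 with 4.99 ± 0.312 and Tirap with 1.98 ± 0.0576 were the lowest. With the longest transcript as the length, Ticam1 moved below Ticam2 and Traf6 in control and below Traf6 in LPS, and the order of the other genes was the same. Among tested protein-coding genes, Irak2 went from the 77.0th to the 92.8th percentile of level per kilobase and Tirap from the 46.8th to the 33.3rd, while Cd14 was at the 99.1st and then the 99.9th.

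Cd14 alone made up 72.4% ± 0.670 of the summed level per kilobase of the 10 genes in control and 93.7% ± 0.0488 in LPS (SD, n = 3). The other 9 genes together went from 87.5 ± 1.47 to 142 ± 2.85 normalized CPM per kilobase with the TMM factors, a sum that depends on the scaling. Irak2 made up 14.4% of that sum in control and 35.5% in LPS. Among the adaptors, the share of Myd88 went from 60.1% ± 1.10 to 71.0% ± 1.80, that of Tirap from 11.0% ± 0.474 to 4.0% ± 0.136 and that of Ticam2 from 14.3% ± 0.698 to 10.1% ± 0.912. The share of Ticam1, 14.6% ± 0.390 and 14.9% ± 0.934, overlapped between the groups.

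The protein-coding genes most like Cd14 in the shape of their values over the 6 libraries, by Euclidean distance of centred log2 CPM, were Gadd45b (0.0817), Sod2 (0.0923), Rapgef2 (0.10), Cflar (0.113) and Nfkbid (0.127). Their log2 fold changes ranged from 3.12 to 3.27. Since each gene has 6 points in 2 groups, this likeness is mainly one in the size of the difference.

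Of 35 other genes of the pathway, listed by their role, 4 were higher and 2 lower at both criteria, beside 10.5% and 10.4% of all genes tested. At the adjusted p alone 18 were higher and 9 lower, beside 32.9% and 34.9% of all genes tested. Their median log2 fold change was 0.20. The balance depends on the scaling. With library size alone, 3 of the 35 were higher and 5 lower at both criteria, beside 1213 and 2964 of the 15687 genes tested. At the adjusted p, 9 were higher and 20 lower, beside 15.0% and 65.9% of all genes tested. Upper quartile scaling gave 15 higher and 11 lower at the adjusted p, beside 23.6% and 46.3% of all genes tested. Among the 6 companions of the receptor and of LPS delivery, none passed both criteria, and 2 were higher and 2 lower at the adjusted p. The median of the 6 was -0.09. Lbp, which did not pass, had at most 23 counts in any library. With library size alone none of the 6 was higher, 5 were lower and Tlr4 passed both criteria. Tlr4, the receptor itself, was at 233 ± 10.3 normalized CPM in control and 139 ± 7.11 in LPS (SD, n = 3) and fell by 0.75 on the log2 scale (SE 0.04), by 1.15 with library size alone. Tlr4 and Cd14, which act in the same complex, therefore differed in the sign of their change.

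Between TRAF6 and the kinases TAK1 and IKK, 7 of 14 genes were higher and 5 lower at the adjusted p. Of all genes tested, 32.9% were higher and 34.9% lower, and the list median log2 fold change was 0.10. With library size alone 3 of the 14 were higher and 9 lower, beside 15.0% and 65.9% of all genes tested. Peli1, a ubiquitin ligase that acts on IRAK kinases, rose by 2.08 on the log2 scale (SE 0.04), from 52.8 ± 2.51 to 223 ± 4.49 normalized CPM, close in size to the change of Irak2. Tab1, a subunit of the TAK1 complex, fell by 1.41 (SE 0.07). In the TRIF arm to IRF3, 5 of 8 genes were higher and 2 lower, beside the 32.9% and 34.9% of all genes tested. The median was 0.36, and with library size alone 4 were higher and 4 lower, beside the 15.0% and 65.9%. Tank, a scaffold of TBK1, rose by 2.11 (SE 0.04) and Traf3, the ligase that TRIF recruits, by 1.05 (SE 0.04), although upper quartile scaling put Traf3 at 0.91 and library size alone at 0.65. Tbkbp1, another TBK1 adaptor, fell by 1.09 (SE 0.07).

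Of 7 brakes on the adaptor and kinase step, 4 were higher and none lower at the adjusted p, beside 32.9% and 34.9% of all genes tested. Their median log2 fold change was 0.32. With library size alone 2 were higher and 2 lower, beside 15.0% and 65.9% of all genes tested. Under TMM, the 3 that did not pass were Il1rl1, Sigirr and Sarm1, with at most 242, 88 and 30 counts in any library. Their SEs were 0.10, 0.17 and 0.33, so small changes in either direction could not be called. Tnfaip3, which encodes the ubiquitin-editing enzyme A20 that removes the chains TRAF6 builds, rose by 6.70 on the log2 scale (SE 0.04), from 39.1 ± 0.980 to 4049 ± 36.6 normalized CPM. With library size alone the medians of the 10 genes and of these 4 lists were all below 0, at -0.06, -0.50, -0.31, -0.05 and -0.08 in the order given, beside the -0.42 over all genes.

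**Figure D4:**
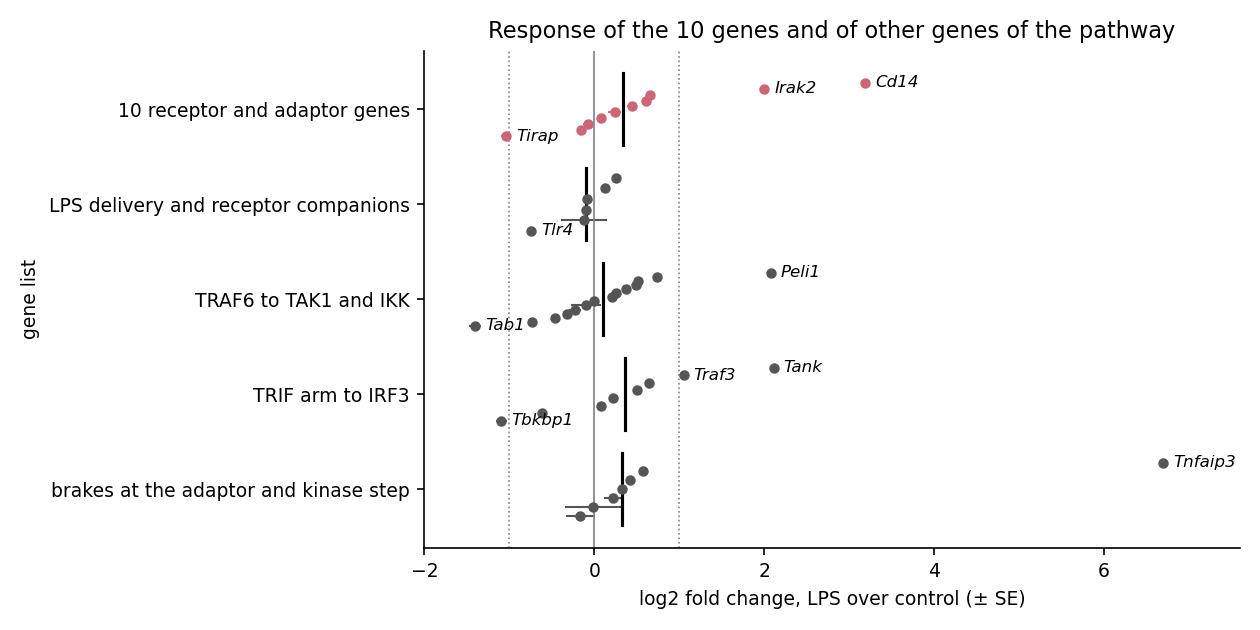
Log2 fold change, LPS over control, with its SE, of each of the 10 genes (red) and of the 35 other genes of the pathway in 4 lists (grey). Vertical bars are list medians, dotted lines mark the fold criterion, and Tnfaip3 lies far to the right of all others, with Cd14 next.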

How the data were processed

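Total RNA from mouse BMDMs was sequenced in 6 libraries (TruSeq Stranded Total RNA kit, paired-end reads). The deposited values are raw read counts per gene, which the authors made with HISAT2 2.1.0, SAMtools 1.17 and featureCounts 2.0.0 on GRCm38 after FastQC 0.11.9. The annotation release, the strand setting and the handling of multimapping reads are not given in the sources used here, so counts over shared exons are uncertain. Gene symbols, coordinates and exon lengths came from GENCODE M21, which held 55154 of the 55335 identifiers.

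Counts were analysed in R 4.3.3 with edgeR 4.0.16 (filterByExpr, TMM, quasi-likelihood test of treatment over all 6 libraries, Benjamini-Hochberg over 15687 genes). CPM were scaled by TMM factors, and SEs were derived from the F statistic. Ratios of 2 counts were tested by an exact permutation test. The members, pathway lists and tests were chosen with earlier results of these data known. Named genes were all 10 members, Tlr4, the 2 highest and 2 lowest of each list past both criteria, the 5 genes nearest in pattern to Cd14, and genes sharing exons with members. Alternatives used DESeq2 1.42.0, limma 3.58.1, other scalings, filters and lengths, and left out each library.

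The labels give each library a batch number from 1 to 3 that equals its replicate number and is shared by both groups. The pairing used here rests on that number alone, and the labels do not say what same-numbered libraries share. After group means were removed, libraries with the same number correlated weakly, at -0.01, 0.08 and 0.04. Control and LPS libraries with different numbers correlated at -0.08 to 0.04, so these values do not establish a pairing. Across the 10 genes, the SD over replicates was 0.280% to 6.26% of the mean and the counting error 0.287% to 5.65%. The SD was below the counting error in 9 of 20 values of a gene in a group. Reads carry no molecular identifiers, so counting errors cover counting alone. No 2 libraries of a group were alike within sampling noise. The code was tested on simulated data in which few genes changed, as many up as down. That test does not cover the dependence on scaling.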

Additional observations from a re-analysis of the deposited data

How the results depend on the processing

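At both criteria, Cd14 and Irak2 were higher and Tirap lower under all 15 alternatives, which left out each library, changed the scaling, filter or test, dropped the 10 most counted genes, or added the replicate block. The replicate block changed no call among the 10 genes, with 7 higher and 2 lower at the adjusted p. With library size alone, 4 were higher (Cd14, Irak2, Myd88, Traf6) and 4 lower (Irak1, Irak4, Ticam2, Tirap), and the log2 fold changes of Ly96 (-0.16) and Irak1 (-0.32, and -0.060 with upper quartile scaling) reversed. That setting leaves out the factors that differ between the groups. It called 2964 genes of the whole table lower at both criteria, and 2354 higher and 10337 lower at the adjusted p, against 1624, 5159 and 5467. Requiring at least 10 counts in every library called 1027 lower at both criteria of 13793 tested. Irak1 also lost its call without a low-count filter (adjusted p = 0.279), with the stricter filter (adjusted p = 0.0945) and without the 10 most counted genes (adjusted p = 0.0542). With a library left out, log2 fold changes were 3.17 to 3.20 for Cd14, 1.98 to 2.01 for Irak2 and -1.06 to -1.02 for Tirap. Length by the longest transcript put the share of Cd14 at 68.9% in control and 92.5% in LPS. Counts limit Ly96 and Tirap most.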
